A study of Mus musculus with 24 samples.

Results

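RNA sequencing of neural progenitor cells (NPC) carrying a heterozygous 50-repeat Htt allele (Q50) was compared with NPC carrying a heterozygous 20-repeat allele (Q20). The members are the 4 NPC libraries labelled Q50 or Q20, replicates 1 and 2 of each, taken from 24 libraries in all. The other 20 libraries are the wild type (WT), Htt knockout (KO), Q92 and Q111 NPC and the mouse embryonic stem cells (mESC) of all 6 genotypes, with 2 libraries a group. Both alleles are Hdh CAG knock-ins in mESC, and every knock-in line keeps 1 untargeted Htt allele. The NPC were derived by plating the mESC in N2B27 medium for 7 days and were then passaged on laminin in FGF and EGF. The mESC had been grown in serum and LIF on a layer of CF-1 mouse embryonic fibroblasts. The series' design text calls both libraries of a group biological samples. The labels name 1 line for each allele, so repeat length and line cannot be told apart. The title of the series concerns repeat length and splicing; the tables used here hold 1 value per gene.

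Htt encodes huntingtin, a large scaffold protein, and its first exon holds a run of CAG codons whose lengthening causes Huntington's disease. Neural stem cells kept in FGF and EGF resemble radial glia: they express Nes, Slc1a3 and Fabp7, divide, and can yield neurons, astrocytes and oligodendrocytes. In such a culture, pluripotency genes such as Pou5f1 are normally silent.

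The coding part of exon 1 of mouse Htt is shown because it holds the repeat that the alleles change. It was read from the GENCODE M21 reference transcript (GRCm38, chr5:34761907-34762109, plus strand), not from the knock-in lines, and its 7 glutamine codons, 6 CAG and 1 CAA, are in capitals:
Htt exon 1: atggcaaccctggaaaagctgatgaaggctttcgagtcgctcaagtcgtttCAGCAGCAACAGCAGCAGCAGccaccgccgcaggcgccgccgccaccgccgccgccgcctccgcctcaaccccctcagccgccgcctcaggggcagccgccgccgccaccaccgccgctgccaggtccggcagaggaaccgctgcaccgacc
The reference run is shorter than the 20 and 50 repeats by which the alleles are named. Htt itself (ENSMUSG00000029104, chr5:34761740-34912534) was measured at 157 and 155 CPM in Q20 and 182 and 173 CPM in Q50. CPM are the deposited values, reads that the authors scaled to a common library size. Both Q50 libraries lay above both Q20 libraries, but the difference did not pass the test (limma, log2 change 0.18, SE 0.14, adjusted p = 0.42). The values do not separate the 2 alleles of the gene. In the NPC of the KO line Htt was at 100.1 and 94.9 CPM.

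Changes are given throughout as Q50 minus Q20 in units of log2(CPM + 1), on which low genes change by less than their ratio. Calls are genes with an adjusted p under 0.05 (limma, Benjamini-Hochberg adjustment), from a fit to all 12 NPC libraries and 13206 genes. The 4 libraries held 48525333 (Q50 replicate 1) to 84353617 (Q50 replicate 2) reads, and Q20 replicates 1 and 2 held 72464779 and 84011328. Replicates differed in log2 value with an SD over genes of 0.497 in Q20 and of 0.535 in Q50. It reached 0.869 in WT, whose libraries add to the shared estimate of spread.

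Of the 13206 genes, 2478 (18.8%) were called: 1063 (8.05%) were higher and 1415 (10.7%) lower in Q50. A further test on the reads behind the values, edgeR's quasi-likelihood test, called 2101, of which 2034 were among the 2478. The median size of a called change was 1.13, and 449 genes changed at least 4-fold. Genes that rose were more abundant, at a median of 43.9 CPM, than genes that fell, at 7.70 CPM. Groups that do not overlap were common: 70.1% of all genes tested had both Q50 libraries above or both below the Q20 libraries. The filter asked for 1 CPM in 2 of the 12 libraries; 253 genes met it through the Q20 libraries alone and 48 through the Q50 libraries alone, so a difference was built into their testing. Among the list members these were Pou5f1, Sall4, Lin28a, Eomes, Epcam, Krt8, Des, Cnn1, Gad2, Mog, Heyl, Rspo3, Bmp4, Fgf5 and Rtl1 (Q20) and Six3, Bmp2 and Fgfr4 (Q50). The shares called in the lists that hold them are in part built in. Fits to the 4 libraries alone and to the 8 knock-in libraries called more genes, 3927 and 5032 of 13206, and more members of several lists. With 1 library left out, between 1258 (without Q20 replicate 1) and 1423 (without Q50 replicate 2) genes were called; the count was 1350 without Q20 replicate 2 and 1378 without Q50 replicate 1.

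**Figure D1:**
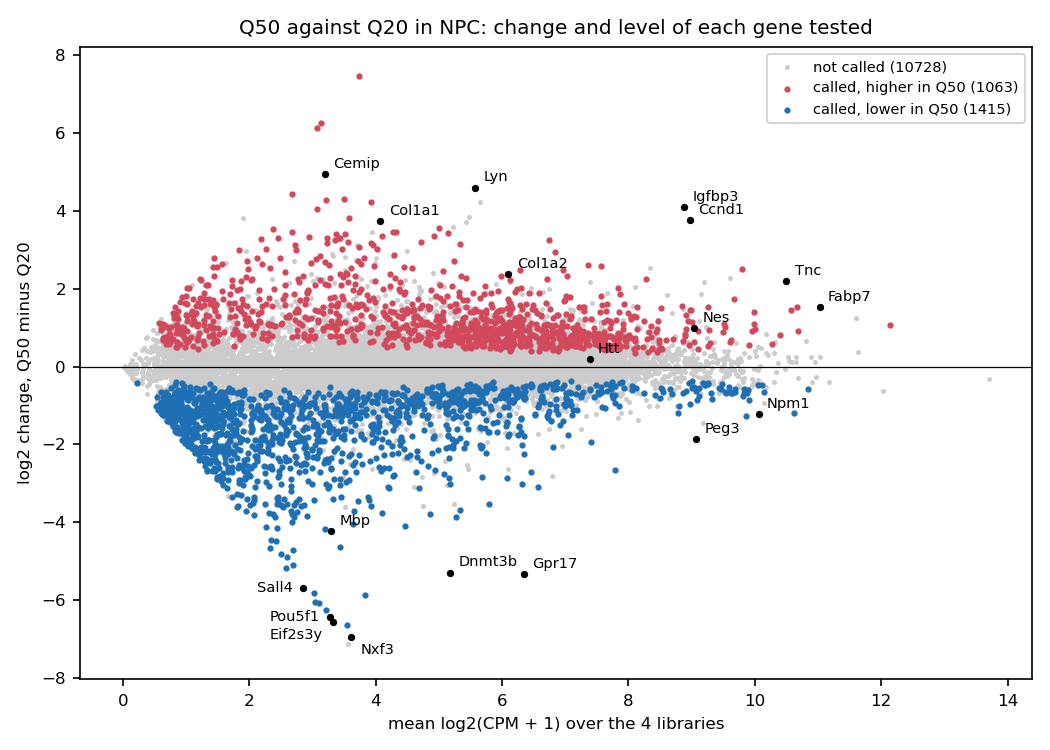
Log2 change (Q50 minus Q20, vertical axis) against the mean log2(CPM + 1) of the 4 libraries (horizontal axis); each point is a gene and named genes are in black. Called genes are in red (1063 higher) and blue (1415 lower); the steepest falls, such as Sall4 and Pou5f1, lie on the lower left edge, where the Q50 level is near 0.

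The labelled cell type was checked against marker genes. Of 14 neural progenitor markers 13 were in the table (Sox2 was not found), and their CPM summed to 5148 and 5482 in Q20 and 11033 and 10919 in Q50. Nestin (Nes), the intermediate filament of neural stem cells, was at 353 and 393 CPM in Q20 and 606 and 914 CPM in Q50; its groups did not overlap, but it was not called (log2 change 1.00, SE 0.41, adjusted p = 0.138). In fits without the WT libraries, to the 4 libraries alone and to the 8 knock-in libraries it was called (limma, adjusted p down to 0.00804). Pax6, a transcription factor of neural progenitors, was at 37.6 and 33.3 CPM in Q20 and 34.6 and 31.5 CPM in Q50 (log2 change -0.10). The glutamate transporter Slc1a3 was at 1399 and 1446 CPM in Q20 and 2276 and 2230.4 CPM in Q50 and was not called either (adjusted p = 0.126), except in fits to the 4 or to the 8 knock-in libraries (adjusted p down to 0.000536). The 5 endothelial and microglial markers summed to 1.24 and 1.18 CPM in Q20 and 0.754 and 0.482 CPM in Q50.

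Both cultures held transcripts of other cell types, in different mixtures. The 7 fibroblast or feeder cell markers summed to 300.3 and 244 CPM in Q20 and 866 and 888 CPM in Q50, against 2.51 to 35.4 CPM in the other 8 NPC libraries. The 3 measured pluripotent cell markers of 4 summed to 104 and 102 CPM in Q20 and to 2.53 and 3.35 CPM in Q50. The 4 measured of 7 markers of endoderm, mesoderm and epiderm summed to 18.8 and 17 CPM in Q20 and 0.561 and 0.482 CPM in Q50. None of the markers in the table was at 0 in both libraries of Q20 or of Q50. In bulk RNA, fewer cells of a type and less RNA per cell cannot be told apart, and the part of these cell types in the results was not tested.

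**Figure D2:**
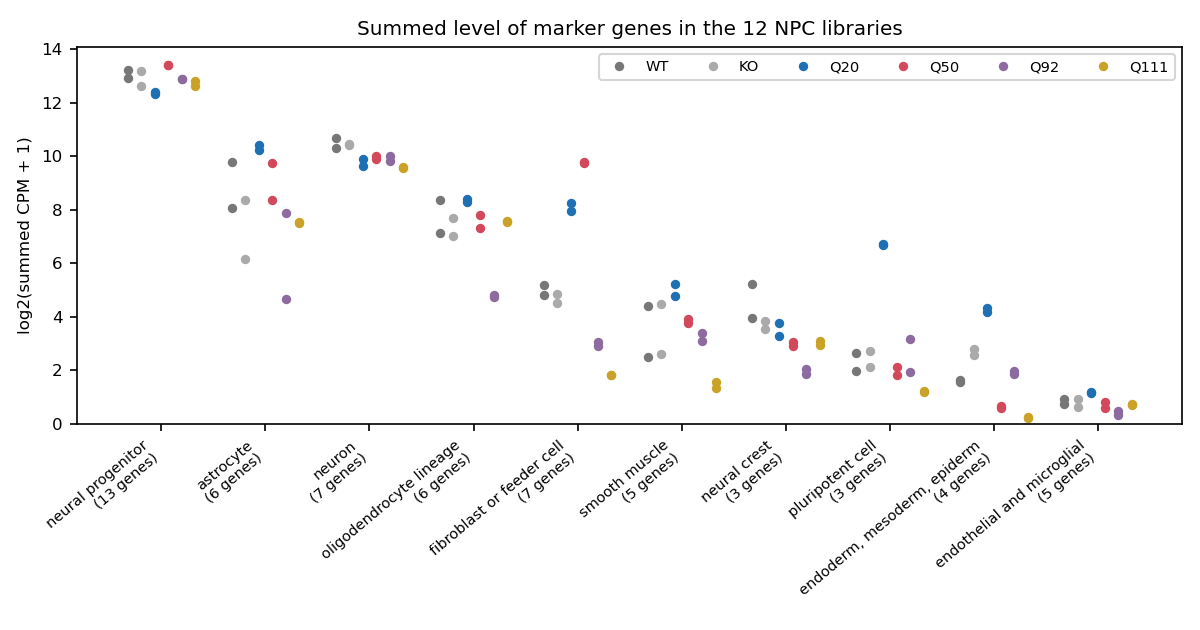
Summed CPM of the marker genes of each cell type, as log2(sum + 1), in the 12 NPC libraries; each point is a library, coloured by genotype. Q20 and Q50 stand above the other genotypes for fibroblast markers, and Q20 stands alone for pluripotent cell markers, at 104 and 102 CPM.

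The largest falls included genes of the pluripotent and early embryonic state. Their level was high in Q20 and near 0 in Q50. Upstream sequence is shown for 1 pair of them, Pou5f1 and Lin28a, and for 1 pair of the largest rises, Cemip and Igfbp3. Each is the 250 bases before the RefSeq start (GRCm38.p6), 5′ to 3′ on the gene's strand, with CG dinucleotides, the sites of DNA methylation, in capitals:
Pou5f1, chr17:35505782-35506031, plus strand: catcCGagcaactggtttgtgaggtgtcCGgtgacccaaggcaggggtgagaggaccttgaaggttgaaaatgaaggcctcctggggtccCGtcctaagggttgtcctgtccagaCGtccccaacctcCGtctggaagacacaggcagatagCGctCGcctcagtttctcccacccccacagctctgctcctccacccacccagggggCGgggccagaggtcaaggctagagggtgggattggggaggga
Lin28a, chr4:134018817-134019066, minus strand: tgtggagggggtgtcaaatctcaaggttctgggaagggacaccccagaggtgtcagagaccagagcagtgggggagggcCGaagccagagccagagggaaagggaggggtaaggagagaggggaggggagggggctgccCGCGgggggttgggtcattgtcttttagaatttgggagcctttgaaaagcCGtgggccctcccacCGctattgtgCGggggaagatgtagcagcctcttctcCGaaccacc
Cemip, chr7:84086506-84086755, minus strand: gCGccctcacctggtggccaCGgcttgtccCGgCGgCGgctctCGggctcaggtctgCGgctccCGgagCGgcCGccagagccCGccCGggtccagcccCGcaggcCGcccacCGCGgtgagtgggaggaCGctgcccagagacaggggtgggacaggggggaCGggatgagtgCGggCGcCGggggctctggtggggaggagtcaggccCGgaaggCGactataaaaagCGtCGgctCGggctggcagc
Igfbp3, chr11:7213924-7214173, minus strand: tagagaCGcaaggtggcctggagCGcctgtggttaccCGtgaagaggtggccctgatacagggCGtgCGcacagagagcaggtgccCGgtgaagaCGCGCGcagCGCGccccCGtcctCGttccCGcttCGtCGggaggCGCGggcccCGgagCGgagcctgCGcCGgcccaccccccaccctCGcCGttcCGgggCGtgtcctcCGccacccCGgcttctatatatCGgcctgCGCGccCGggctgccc
The windows held 8 (Pou5f1), 7 (Lin28a), 26 (Cemip) and 32 (Igfbp3) CG, which 43%, 46.3%, 9.59% and 4.58% of all 32851 RefSeq windows of this length matched or exceeded. The window of Dnmt3b, another of the largest falls, held 21 CG, which 16.3% of windows matched or exceeded. The windows shown therefore do not stand for falls and rises at large. CG reads the same on both strands. Methylation was not measured, and the counts describe the sequence alone.

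Pou5f1 (ENSMUSG00000024406, chr17:35506018-35510772), which encodes the pluripotency factor Oct4, was at 90.1 and 87.4 CPM in Q20 and 0.058 and 0.0235 CPM in Q50 (log2 change -6.43, SE 0.11, adjusted p = 6.26e-08). The Q50 value rests on 5 reads against 15401 in Q20, a ratio of 2424 with an exact 95% interval of 1039 to 7468 that covers counting error only. In the 8 other NPC libraries Pou5f1 ran from 0 to 0.405 CPM, so the Q20 line was the one with a high level. Lin28a, an RNA-binding protein that blocks let-7 maturation, showed the same pattern, at 70.8 and 69.1 CPM in Q20 and 0.058 and 0.0353 CPM in Q50. Sall4, a zinc finger partner of Oct4, was at 47.1 and 54.6 CPM in Q20 and had no read in either Q50 library, so it was at least 2331-fold lower against a floor of 3 reads over both. Nanog was lower by less, at 13 and 13.7 CPM in Q20 and 0.657 and 0.776 CPM in Q50 (log2 change -3.06, SE 0.23, adjusted p = 5.41e-05).

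Other genes of the largest falls and of several lists are given here together, a grouping made after their values were seen. The de novo DNA methyltransferase Dnmt3b went from 210.1 and 241 CPM in Q20 to 4.39 and 5.19 CPM in Q50 (log2 change -5.29, SE 0.24, adjusted p = 5.36e-06). Nxf3, an X-linked RNA export factor, was at 132 and 136 CPM in Q20 and 0.0967 and 0.0823 CPM in Q50, the steepest fall that met the naming rule (log2 change -6.95). Igf2bp1, an mRNA-binding protein of fetal tissue, was at 81.3 and 144 CPM in Q20 and 0.522 and 1.27 CPM in Q50. The epithelial adhesion genes Epcam (22.1 and 23.5 CPM in Q20 and 0.0774 and 0.106 CPM in Q50) and Cdh1 (12.9 and 12.9 CPM in Q20 and 0.058 and 0.0823 CPM in Q50) separated the lines in the same direction. Eomes, a mesoderm and intermediate progenitor factor, was at 3.27 and 6.86 CPM in Q20 and 0.541 and 0.282 CPM in Q50; limma called it, while edgeR gave an adjusted p of 0.0543.

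In the pluripotency list, 4 of 8 tested members were lower and 1 was higher; the 16 members of the list include 6 that were not in the NPC table and 2 under the filter. The member that rose, Tbx3, was at 0.0497 and 0.0858 CPM in Q20 and 1.14 and 1.40 CPM in Q50. Pou5f1, Sall4 and Lin28a met the filter through the Q20 libraries alone. Of 7 tested genes of endoderm, mesoderm and epiderm, 5 were lower (Cdh1, Epcam, Eomes, T and Krt8) and none was higher. Epcam, Eomes and Krt8 also met the filter through Q20 alone, so neither count of falls can be read against the 10.7% of all genes tested that were lower. With 1 of the 4 libraries left out, the pluripotency median ran from -1.81 to -1.66. That of endoderm, mesoderm and epiderm ran from -2.14 to -1.86. The filter still used all 12 libraries in these fits, so genes that met it through Q20 alone stayed in and this stability was in part built in.

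**Figure D3:**
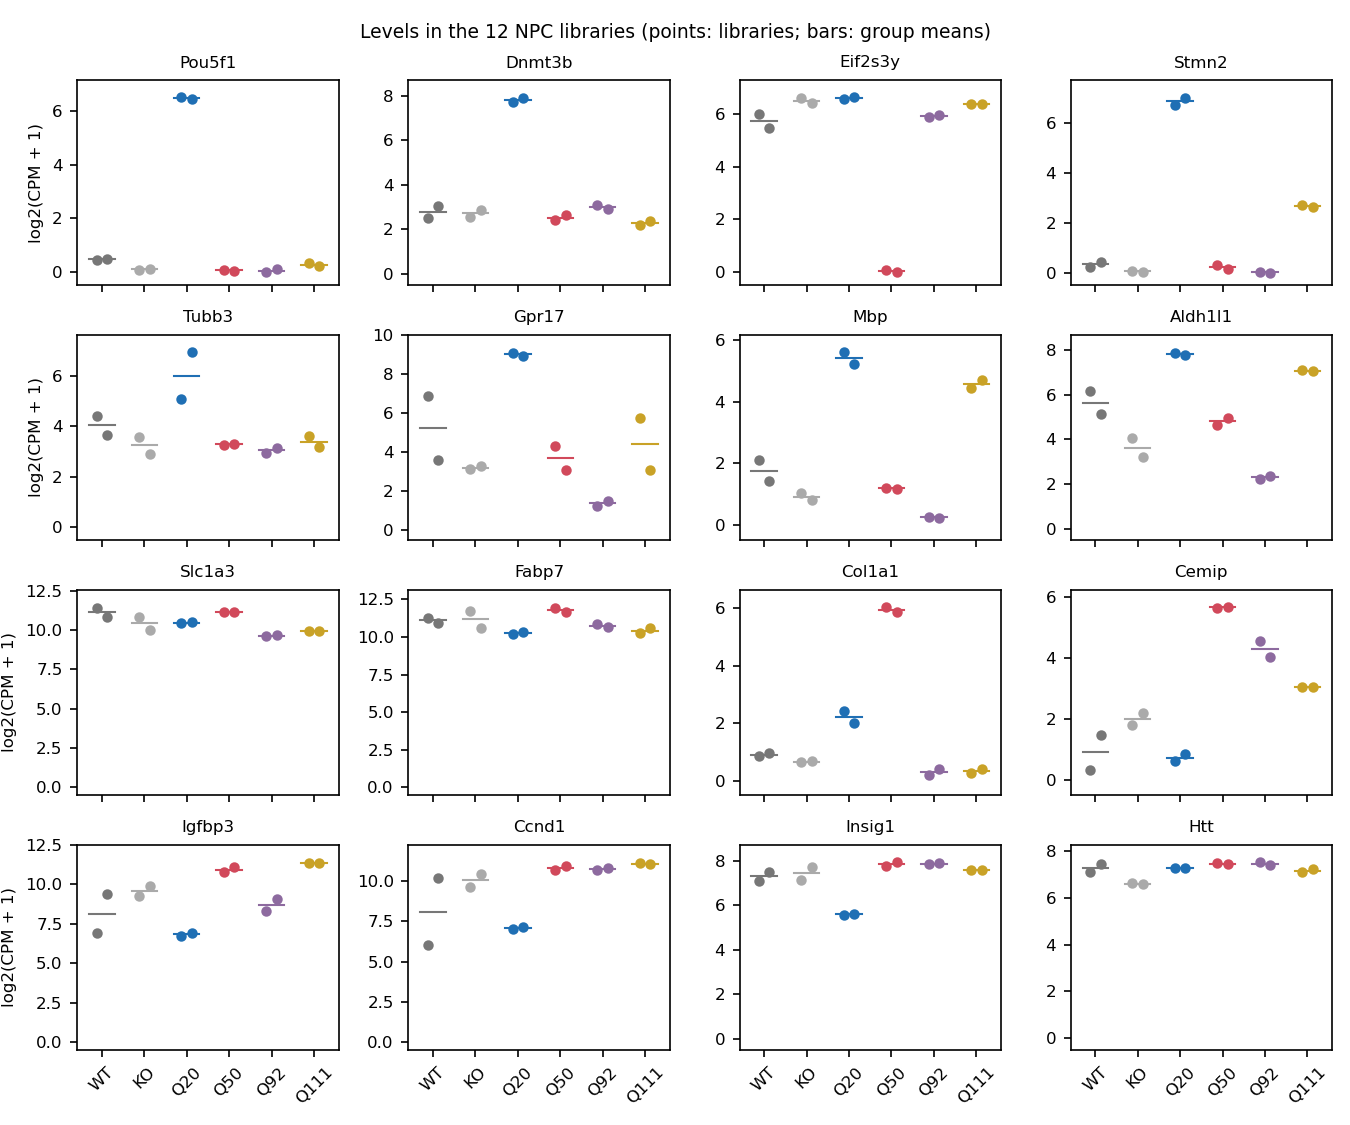
Log2(CPM + 1) of 16 genes (vertical axes) in the 12 NPC libraries by genotype; points are libraries and bars are group means. Pou5f1 and Dnmt3b are high in Q20 alone, Eif2s3y is near 0 in Q50 alone, and Col1a1 is highest in Q50.

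Of 5 tested genes annotated to the Y chromosome 3 fell, each to near 0 in the Q50 NPC. Eif2s3y, a translation initiation factor subunit, was at 94.6 and 98.6 CPM in Q20 and 0.058 and 0 CPM in Q50 (log2 change -6.57, SE 0.19, adjusted p = 3.87e-07). The RNA helicase Ddx3y was at 72.3 and 88.7 CPM in Q20 and 0.058 and 0.0706 CPM in Q50, and the histone demethylase gene Uty at 60.3 and 72.5 CPM in Q20 and 0.0193 and 0 CPM in Q50. These 3 genes had 3, 9 and 1 reads in both Q50 libraries together. All 3 were present in the other 10 NPC libraries; Eif2s3y ran there from 43.2 CPM in WT replicate 2 to 98.6 CPM in Q20 replicate 2. In the mESC of the Q50 line they were detected, Eif2s3y at 34.9 and 36 CPM against 68.6 and 59.1 CPM in Q20 mESC. The other two tested genes did not pass the test in NPC. Kdm5d, a histone demethylase gene, was at 0.273 and 0.257 CPM in Q20, 0 and 0.0235 CPM in Q50 and 43.6 and 46.8 CPM in Q111. Erdr1, of the region shared with the X chromosome, was at 44.3 and 51.6 CPM in Q20 and 24.7 and 23.7 CPM in Q50. The mESC and NPC tables were scaled separately, so levels are set against each other only within a table. DNA was not sequenced in the tables used here.

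The 3 largest called rises, Hist1h4n, Hist1h2ap and Mgat2 (log2 change 7.47, 6.27 and 6.13), were genes of 1 exon with no read in either Q20 library, a class outside the naming rule whose values are uncertain. Among genes that met the rule, the largest rises included secreted, signalling and immune genes. Cemip (ENSMUSG00000052353, chr7:83932857-84086502), a hyaluronan-degrading protein, was at 0.522 and 0.804 CPM in Q20 and 49.5 and 50.4 CPM in Q50 (log2 change 4.94, SE 0.36, adjusted p = 4.77e-05). Lyn, a Src family kinase, was at 8.64 and 8.68 CPM in Q20 and 219.8 and 248 CPM in Q50, and Igfbp3, a carrier of insulin-like growth factors, at 104 and 122 CPM in Q20 and 1736 and 2188 CPM in Q50. Ifi202b, an interferon-inducible gene, went from 0.224 and 0.536 to 35.4 and 23.4 CPM, and Cdh19, a type II cadherin, from 0.969 and 1.21 to 49.8 and 31.9 CPM. The naming rule asked for called genes whose groups do not overlap, so the separation of these genes was set by their choice.

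The other large rises that met the naming rule were Lpo, Angpt2, Cnpy1, Fndc1, Ccnd1, Col1a1 and A2m, with log2 changes from 3.57 (A2m) to 4.30 (Lpo). Angpt2, a ligand of the Tie2 receptor, was at 2.24 and 2.82 CPM in Q20 and 61.1 and 69.8 CPM in Q50. A2m, a protease inhibitor, was at 9.94 and 6.94 CPM in Q20 and 114 and 106 CPM in Q50. Lyn, Lpo and Igfbp3 were also high in the Q111 NPC (Lyn at 218 and 223 CPM), whereas Cemip was at 7.27 and 7.37 CPM there. Igfbp3 was also at 611 and 963 CPM in KO and 318 and 528 CPM in Q92. Fndc1 was at 64.1 and 52.2 CPM in KO, against 2.26 and 2.14 CPM in Q20. Of the 127 genes called higher by at least 4-fold, the median of the 8 other NPC libraries was nearer Q50 for 51 and nearer Q20 for 76. Among abundant genes, Serpine2, a secreted serine protease inhibitor, rose from 955 and 965 to 2548 and 2995 CPM, and the brain creatine kinase gene Ckb from 3158 and 3125 to 6151 and 6958 CPM. Ckb lost its call when any 1 of the 4 libraries was left out (adjusted p 0.0718 to 0.113).

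Radial glia genes moved in both directions, and 30.4% were called, against 18.8% of all genes tested. Of 23 members tested, 4 were higher (Fabp7, Tnc, Vim and Nr2e1) and 3 lower (Prom1, Hopx and Gli3). Their median change was 0.54 against 0.00 over all genes tested. The fit to the 4 libraries alone called 9 higher and 4 lower, against 1857 higher and 2070 lower of all 13206 genes. The brain lipid-binding protein gene Fabp7 was at 1194 and 1266 CPM in Q20 and 3921 and 3188 CPM in Q50; it was called (log2 change 1.52, SE 0.32, adjusted p = 0.0131), but not without either Q20 replicate or without Q50 replicate 1 (adjusted p 0.0443 to 0.0871 over the 4 cases). Tenascin C (Tnc), a matrix glycoprotein of neural stem cells, was at 646 and 702 CPM in Q20 and 2549 and 3787 CPM in Q50 (log2 change 2.20, SE 0.32, adjusted p = 0.00203). Nr2e1 (Tlx), a nuclear receptor that keeps neural stem cells self-renewing, was at 0.0248 and 0.182 CPM in Q20 and 5.41 and 5.60 CPM in Q50. Prom1, which encodes CD133, was lower in both Q50 libraries, at 93.1 and 97.3 CPM in Q20 and 12.7 and 12 CPM in Q50 (log2 change -2.85, SE 0.14, adjusted p = 6.4e-06). Leaving out 1 library gave 3 to 4 higher and 2 lower members.

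Astrocyte genes fell more often than they rose, 4 against 2 of 19, with a median of -0.84 that was -0.47 without Q50 replicate 2. Calls made up 31.6% of the list, against 18.8% of all genes tested. In the fit to the 4 libraries alone, given below, 2070 of all 13206 genes were lower. Aldh1l1, a folate enzyme and astrocyte marker, fell from 235 and 215 to 23.7 and 30.4 CPM (log2 change -3.02, SE 0.37, adjusted p = 0.00073). Fgfr3, an FGF receptor of astrocytes and their precursors, was at 256 and 197 CPM in Q20 and 38.5 and 29.1 CPM in Q50; without Q20 replicate 1 its adjusted p was 0.0517. Glul, glutamine synthetase, was at 1443 and 1449.8 CPM in Q20 and 805 and 447 CPM in Q50, and its call was lost under edgeR (adjusted p = 0.0609). Its log2 change of -1.27 ran from -1.69 to -0.85 with 1 library left out. The bicarbonate transporter Slc4a4 and the acyl-CoA synthetase Acsbg1 were the members that rose, Slc4a4 from 121 and 119.6 to 530.0 and 369.8 CPM. Gfap, the astrocyte filament, varied as much between replicates as between lines, at 43.1 and 27.8 CPM in Q20 and 72.9 and 35.3 CPM in Q50. Leaving out 1 library left 2 higher and 1 to 3 lower, and edgeR called 2 lower; the fit to the 4 libraries alone called 8 lower.

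Oligodendrocyte genes that were called, 53.8% against 18.8% of all genes tested, mostly fell. The member Mog met the filter through Q20 alone, so a part of this share was built in. Of 13 members, 6 fell and 1, Cspg4 (NG2), rose; the median was -1.21 (-1.91 without the genes of chromosomes 1, 11 and Y) and the list summed to 1291 and 1221 CPM in Q20 and 442 and 389 CPM in Q50. Mbp, myelin basic protein, fell from 47.6 and 36.5 to 1.30 and 1.25 CPM (log2 change -4.23, SE 0.25, adjusted p = 1.47e-05). Enpp6, a marker of newly forming oligodendrocytes, was at 35.6 and 28.9 CPM in Q20 and 0.174 and 0.365 CPM in Q50. Gpr17, a receptor of committed oligodendrocyte precursors, was at 546 and 489 CPM in Q20 and 18.8 and 7.38 CPM in Q50; it has 2 annotated exons, a class discussed further on, and its adjusted p ran from 0.0376 to 0.0791 with 1 library left out. Leaving out 1 library gave 4 to 6 lower members.

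Neuronal genes split, with 9 of 17 lower and 3 higher (Gap43, Map2 and Gad1), and a median of -0.82, or -0.35 with a pseudocount of 5. Calls took 70.6% of the list, against 18.8% of all genes tested. The member Gad2 met the filter through Q20 alone, so a part of this share was built in. Stmn2, a microtubule regulator of growing neurites, fell from 103 and 128 to 0.251 and 0.0941 CPM, the second steepest fall by the naming rule (log2 change -6.63, SE 0.16, adjusted p = 1.47e-07). Dcx, doublecortin of migrating neurons, was at 38.6 and 52.2 CPM in Q20 and 9.03 and 4.66 CPM in Q50. Tubb3, the neuronal beta-tubulin, was at 32.6 and 121 CPM in Q20 and 8.68 and 8.76 CPM in Q50; the Q20 libraries differed widely from each other, and the call was lost without Q50 replicate 1 or without Q50 replicate 2 (adjusted p up to 0.0615). Gap43, a growth cone protein that is also made by glia, rose from 52 and 51.4 to 213 and 407 CPM. Because Map2 and Gap43 are abundant, the summed CPM of the list was higher in Q50 (1585 and 1811) than in Q20 (1300.3 and 1441) although more members fell. Leaving out 1 library gave 6 to 9 lower and 1 to 2 higher members.

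Most fibroblast and mesenchyme genes that were called rose. Of 17 members, 10 were higher and 1 (Mmp2) was lower in Q50, with a median of 1.25; 8.05% of all genes were higher. The median was 0.70 with a pseudocount of 5 and 0.65 without the genes of chromosomes 1, 11 and Y, where 6 of 13 were higher. The collagen chain gene Col1a1 (ENSMUSG00000001506, chr11:94936224-94953042) was at 4.32 and 3.00 CPM in Q20 and 64.5 and 56.6 CPM in Q50 (log2 change 3.73, SE 0.18, adjusted p = 6.25e-06). Its partner chain Col1a2 was at 33.1 and 25.4 CPM in Q20 and 153 and 159 CPM in Q50, and fibronectin (Fn1) at 46.3 and 40.9 CPM in Q20 and 188 and 144 CPM in Q50. In the other 8 NPC libraries Col1a2 ran from 0.0495 to 0.631 CPM, so it was low there and present in Q20 and Q50. The gelatinase gene Mmp2 moved the other way, at 37.8 and 33 CPM in Q20 and 6.09 and 6.18 CPM in Q50 (log2 change -2.35, SE 0.25, adjusted p = 0.000332). Without 1 library, 6 to 7 members were higher; edgeR called 7. The mESC of both lines had been grown on fibroblast feeders, and the share of feeder RNA in these libraries was not tested.

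Contractile and neural crest genes that were called mostly fell. Calls made up 53.8% and 50% of these lists, in that order, against 18.8% of all genes tested. Of 13 smooth muscle and contractile members, 5 were lower and 2 (Mylk and Tagln) higher. The members Des and Cnn1 met the filter through Q20 alone, so a part of the share of this list was built in. Desmin (Des) was at 11 and 8.66 CPM in Q20 and 0.193 and 0.423 CPM in Q50, Tpm2, a tropomyosin, at 14.7 and 13.1 CPM in Q20 and 1.76 and 2.19 CPM in Q50, and the myosin heavy chain Myh11 at 9.96 and 8.37 CPM in Q20 and 0.774 and 0.741 CPM in Q50. The call of Des was lost under edgeR (adjusted p = 0.0543). Mylk, myosin light chain kinase, was at 9.06 and 8.86 CPM in Q20 and 48.4 and 66 CPM in Q50 and was also high in the Q111 NPC, at 81.5 and 81.8 CPM. Of 8 neural crest and Schwann cell genes, 4 were lower (Ngfr, Erbb3, Tfap2a and Pax7) and none was higher. Basement membrane and matrix genes moved both ways, 9 higher and 7 lower of 37 (43.2%, against 18.8% of all genes tested). Among them the membrane-type metalloprotease Mmp15 rose from 89.5 and 64.4 to 433 and 491 CPM, and tenascin R (Tnr), a matrix protein of oligodendrocytes and neurons, fell from 65.2 and 65.7 to 13.6 and 14.3 CPM.

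Both cultures were kept in EGF and FGF, and genes of that pathway were examined. Of 34 members, 5 were higher (Fgfr4, Dusp6, Hbegf, Fgfr1 and Ccnd1) and 3 lower (Erbb3, Fgf5 and Fgfr3). Together 23.5% of the list was called, near the 18.8% of all genes tested. Fgfr4 met the filter through Q50 alone and Fgf5 through Q20 alone. The fit to the 4 libraries alone called 9 higher and 7 lower, against 1857 higher and 2070 lower of all 13206 genes. Cyclin D1 (Ccnd1), which drives entry into S phase, was at 130.2 and 140.3 CPM in Q20 and 1677 and 2029.9 CPM in Q50 (log2 change 3.76, SE 1.05, adjusted p = 0.04). Dusp6, a phosphatase induced by ERK that acts back on it, was at 58.1 and 57.2 CPM in Q20 and 330.0 and 258 CPM in Q50. Both lost their call when any 1 of the 4 libraries was left out (adjusted p 0.135 to 0.159 for Ccnd1 and 0.132 to 0.194 for Dusp6). In WT the replicates of Ccnd1 differed widely, at 63.4 and 1167 CPM, and without the WT libraries its adjusted p was 5.57e-05 (limma). In the KO, Q92 and Q111 NPC Ccnd1 ran from 809 to 2298 CPM and Dusp6 from 183 to 297 CPM, so the Q20 line was low beside these. The count of higher members was 1 to 2 without 1 of the 4 libraries.

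**Figure D4:**
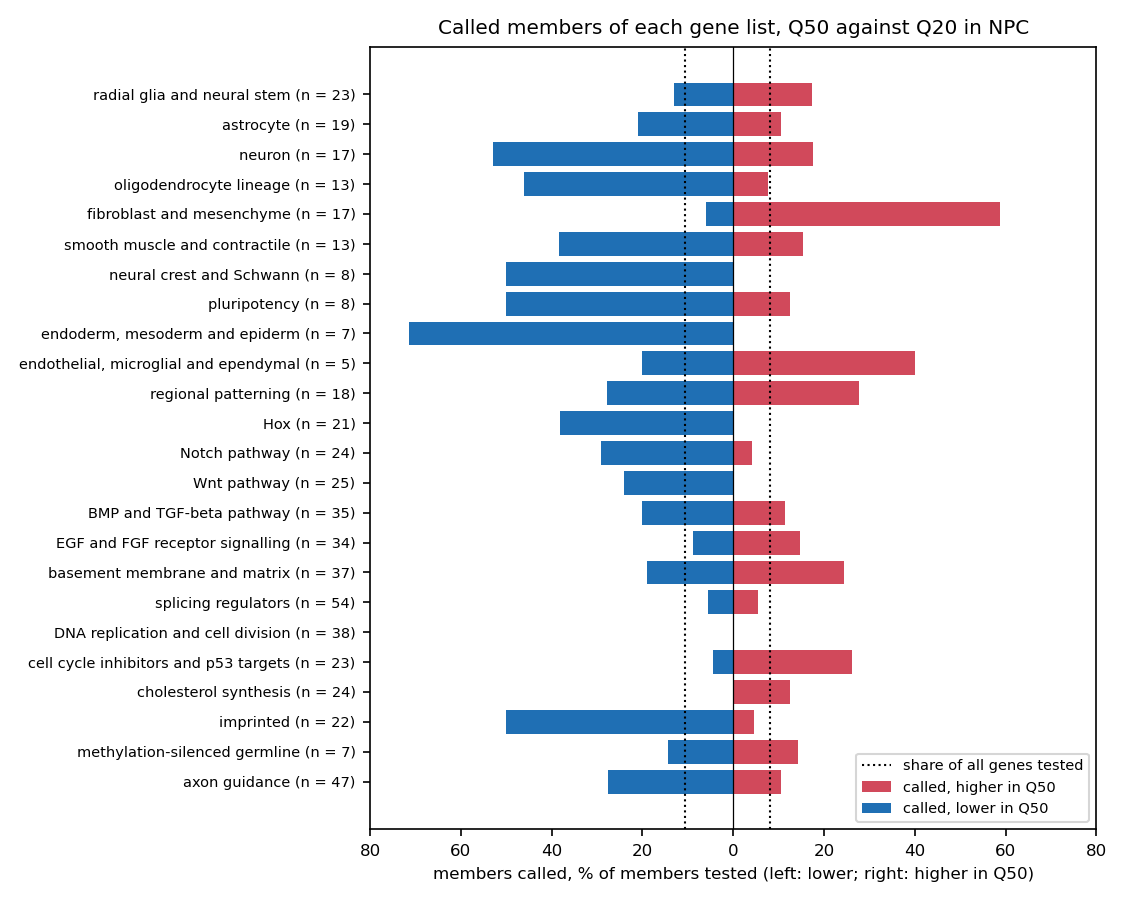
Share of the tested members of each gene list that was called lower (blue, to the left) or higher (red, to the right) in Q50 (horizontal axis, %); n is the number of members tested and the dotted lines mark the shares among all genes tested, 10.7% lower and 8.05% higher. The fibroblast bar is the longest on the right, and the DNA replication list has no bar. The left bars of pluripotency and of endoderm, mesoderm and epiderm cannot be read against the dotted lines. Several of their members met the filter through Q20 alone.

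None of the 38 genes of DNA replication and cell division was called; their median change was 0.32 and they summed to 5069.8 and 5272 CPM in Q20 and 6421 and 7281 CPM in Q50. Under edgeR the count was also 0, and without the WT libraries 2 were higher. The fit to the 4 libraries alone called 15 higher, and the fit to the 8 knock-in libraries 18 higher and 2 lower. Of all 13206 genes the fit to the 4 libraries called 1857 higher, and that to the 8 called 2440 higher and 2592 lower. Of 23 cell cycle inhibitors and p53 targets, 6 rose and 1 (Sesn1) fell, 30.4% against 18.8% of all genes tested. The p21 gene Cdkn1a was at 20.0 and 18.8 CPM in Q20 and 47.7 and 122 CPM in Q50, with Q50 replicate 2 far above replicate 1; without Q20 replicate 1 or without Q20 replicate 2 it was not called (adjusted p up to 0.0578). Cdkn2b (p15), at 13.6 and 12.3 CPM in Q20 and 44 and 47.4 CPM in Q50, and Eda2r, a TNF receptor family member induced by p53, at 43.6 and 50.7 CPM in Q20 and 107 and 96.1 CPM in Q50, separated the lines with little spread. Without 1 library, 3 to 4 members were higher and 0 lower.

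Of 24 cholesterol synthesis genes, 21 had a positive change, with a median of 0.69, and 3 were called, Insig1, Hsd17b7 and Hmgcs1. That is 12.5% of the list, against 8.05% of all genes called higher. With the 4 libraries alone 11 members were called higher, and with the 8 knock-in libraries 13. Of all 13206 genes these fits called 1857 and 2440 higher, in that order. Insig1, a sterol-sensing regulator of the pathway, rose from 45.7 and 48.4 to 214 and 242 CPM (log2 change 2.25, SE 0.21, adjusted p = 0.000162). Hmgcs1, the HMG-CoA synthase of the pathway, was at 644 and 739.6 CPM in Q20 and 1410.0 and 1563 CPM in Q50 and lost its call without any 1 of the 4 libraries (adjusted p 0.116 to 0.189). Hsd17b7, at 23.6 and 34.1 CPM in Q20 and 75.4 and 82.2 CPM in Q50, lost it without Q20 replicate 1 and without either Q50 replicate. In the other 8 NPC libraries Insig1 ran from 134 to 239 CPM, so the Q20 line was low.

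Genes of regional identity changed in both directions, 5 higher and 5 lower of 18 (55.6%, against 18.8% of all genes tested). The member Six3 met the filter through Q50 alone. Nkx6-2, a homeodomain factor of the ventral neural tube, fell from 12.3 and 10.5 to 0.464 and 0.435 CPM. Zic1, a dorsal neural factor, was at 6.22 and 3.06 CPM in Q20 and 33.4 and 32.3 CPM in Q50, Dbx2, of the intermediate neural tube, at 25.8 and 55.9 CPM in Q20 and 169 and 146 CPM in Q50, and Emx2, of the dorsal forebrain, at 0.696 and 0.836 CPM in Q20 and 8.06 and 4.34 CPM in Q50. Each of these last 3 lost its call with some libraries left out, with adjusted p up to 0.0816 (Zic1), 0.149 (Dbx2) and 0.101 (Emx2); the libraries are named in the closing section. Of 21 Hox genes, which mark hindbrain and spinal cord levels, 8 were lower and none was higher, and 20 had a negative change. That is 38.1% called, against 18.8% of all genes tested. Their median of -0.50 was -0.12 with a pseudocount of 5 and -0.16 with quantile scaling. Without the genes of chromosomes 1, 11 and Y, 4 of 14 were lower, with a median of -0.20. Without genes of 1 or 2 exons, 3 of 10 were lower. Hoxb4 was at 6.80 and 8.45 CPM in Q20 and 0.058 and 0.0353 CPM in Q50 and Hoxa7 at 5.45 and 8.61 CPM in Q20 and 0.716 and 0.4 CPM in Q50. All 21 were low: the list summed to 72.5 and 71.6 CPM in Q20 and 19.5 and 23.8 CPM in Q50. Without 1 library, 4 to 5 Hox genes were lower.

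Among signalling pathways, Notch and Wnt genes that were called mostly fell. Of 24 Notch members, 7 were lower and 1 (Lfng) higher, 33.3% against 18.8% of all genes tested. The ligand gene Jag2 fell from 9.29 and 8.93 to 0.948 and 0.823 CPM (log2 change -2.42, SE 0.15, adjusted p = 2.12e-05), and the inhibitory ligand gene Dll3 was at 87.4 and 79.7 CPM in Q20 and 28.5 and 15.2 CPM in Q50. Lunatic fringe (Lfng), which modifies Notch, was at 56.4 and 52.6 CPM in Q20 and 138 and 163 CPM in Q50. Of 25 Wnt members, 6 were lower and none higher. That is 24% called, near the 18.8% of all genes tested. Those lower were the secreted agonist gene Rspo3 (7.00 and 6.18 CPM in Q20 and 0.058 and 0 CPM in Q50), the secreted inhibitors Sfrp1 (101 and 124 CPM in Q20 and 34.1 and 43.5 CPM in Q50) and Sfrp2 (32.2 and 37.7 CPM in Q20 and 8.22 and 8.55 CPM in Q50), Lef1, Lrp5 and Lgr5. Rspo3, and Heyl of the Notch list, met the filter through Q20 alone, so a part of both shares was built in. The Wnt median of -0.41 was -0.019 when genes averaging under 5 CPM were left out. Without 1 library, 3 to 4 Notch and 4 Wnt members were lower.

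Of 35 BMP and TGF-beta members, 4 were higher and 7 lower, against 8.05% and 10.7% of all genes. Bmp4 met the filter through Q20 alone and Bmp2 through Q50 alone. The type II receptor gene Bmpr2 was at 136 and 159 CPM in Q20 and 350.3 and 322 CPM in Q50, whereas the activin receptor gene Acvr2b was at 16.5 and 14.7 CPM in Q20 and 3.46 and 3.41 CPM in Q50. Without 1 library the counts were 1 to 2 higher and 3 to 4 lower. Axon guidance genes fell more often than they rose, 13 against 5 of 47 (38.3% called, against 18.8% of all genes tested). The ephrin receptors Epha7 (43.3 and 32.7 CPM in Q20 and 1.24 and 1.07 CPM in Q50) and Epha3 (16.2 and 16.5 CPM in Q20 and 0.986 and 0.482 CPM in Q50) and the secreted repellents Slit2 (16.9 and 13.5 CPM in Q20 and 1.20 and 0.811 CPM in Q50) and Slit3 (17 and 13.7 CPM in Q20 and 0.232 and 0.588 CPM in Q50) fell at least 8-fold on the scale used. Without 1 library, 8 to 10 were lower and 2 to 4 higher.

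Imprinted genes, expressed from 1 parental allele, were lower in Q50 in 11 of 22 cases and higher in 1 (Zim1), with a median of -1.24. Calls made up 54.5% of the list, against 18.8% of all genes tested. The member Rtl1 met the filter through Q20 alone, so a part of this share was built in. Zdbf2 fell from 52.9 and 68 to 0.0967 and 0.0823 CPM (log2 change -5.81, SE 0.34, adjusted p = 1.56e-05), and the zinc finger gene Peg3 from 918 and 1149 to 298 and 266 CPM (log2 change -1.86, SE 0.30, adjusted p = 0.00362). Grb10, a growth factor receptor adaptor, was at 20.7 and 21.5 CPM in Q20 and 2.20 and 2.55 CPM in Q50, and Rtl1, a retrotransposon-derived gene, at 68.1 and 14.4 CPM in Q20 and 0.135 and 0.0823 CPM in Q50. Peg3 is expressed from the paternal allele and Rtl1 too, whereas Grb10 is expressed from either allele according to tissue. The summed CPM of the list was not lower, at 4019 and 4012 in Q20 and 4002 and 4875 in Q50. Without 1 library, 6 to 9 imprinted genes were lower.

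Splicing regulators were examined because the title names splicing. Of 54 tested, 3 were higher (Celf1, Hnrnpf and Hnrnpu) and 3 lower (Celf4, Rbfox3 and Khdrbs2), 11.1% against 18.8% of all genes, with a median of 0.11, or 0.0151 with quantile scaling. With the 8 knock-in libraries, 14 were higher and 7 lower of 54, against 5032 called of the 13206 genes. Celf1, a regulator of splicing and mRNA decay, was at 138 and 175 CPM in Q20 and 235 and 241 CPM in Q50. Celf4, a family member of neurons, was at 5.80 and 6.55 CPM in Q20 and 1.45 and 1.32 CPM in Q50. Rbfox3 (NeuN), Celf4 and Khdrbs2 are neuronal genes. Without 1 library, 0 to 1 members were higher and 3 lower. Of 7 tested germline genes that DNA methylation silences, Nxf3 fell and Zcwpw1 rose, 28.6% against 18.8% of all genes tested. The call of Zcwpw1 (limma, adjusted p = 0.0496) held in 8 of 18 alternatives and was lost without any 1 of the 4 libraries.

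Beyond the lists, calls were uneven over the genome. Chromosome 1 held 5.88% of the genes tested but 22.8% of the rises (242 genes, against 53 falls). Chromosome 11 held 8.09% of the genes tested and 14.1% of the falls (199 genes, against 26 rises). The median change was 0.53 over the 776 genes of chromosome 1 and -0.29 over the 1069 of chromosome 11, while those of the other 18 chromosomes (2 to 19 without 11, and X) lay between -0.08 and 0.10. These shifts are small beside the single gene changes above, but they ran along both chromosomes. Among genes averaging 10 CPM or more over the 4 libraries, all 18 stretches of 10 Mb on chromosome 1 that held 10 or more such genes had a positive median (0.38 to 0.91). All 13 on chromosome 11 had a negative one (-0.63 to -0.04).

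The same chromosomes stood out in the mESC of the lines, which are other libraries. There the medians over genes of at least 10 CPM were 0.41 for chromosome 1 and -0.35 for chromosome 11, against 0.58 and -0.26 in NPC. Chromosome 14 had a median of 0.35 in mESC and 0.05 in NPC. In NPC, the chromosome 1 median against the Q20 mean was 0.58 and 0.62 in the Q50 libraries, 0.47 to 0.67 in the WT and KO libraries, and 0.13 to 0.17 in the Q92 and Q111 libraries. The copy number of these chromosomes was not measured. With the genes of chromosomes 1, 11 and Y left out, 1955 genes were called, 795 higher and 1160 lower. In the lists above, Lyn and the pluripotency genes lie elsewhere, while Npm1, which encodes a nucleolar chaperone and fell from 1558 and 1693 to 616 and 794 CPM, Rack1, Col1a1, Igfbp3 and the Hoxb genes lie on chromosome 11. Lpo, Igf2bp1, Grb10 and Slit3 lie there too. Genes on chromosome 1 include Ifi202b, Cdh19, Serpine2, Fn1, Bmpr2 and Hsd17b7, which rose, and Zdbf2, Glul, Des, Tnr and Khdrbs2, which fell.

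**Figure D5:**
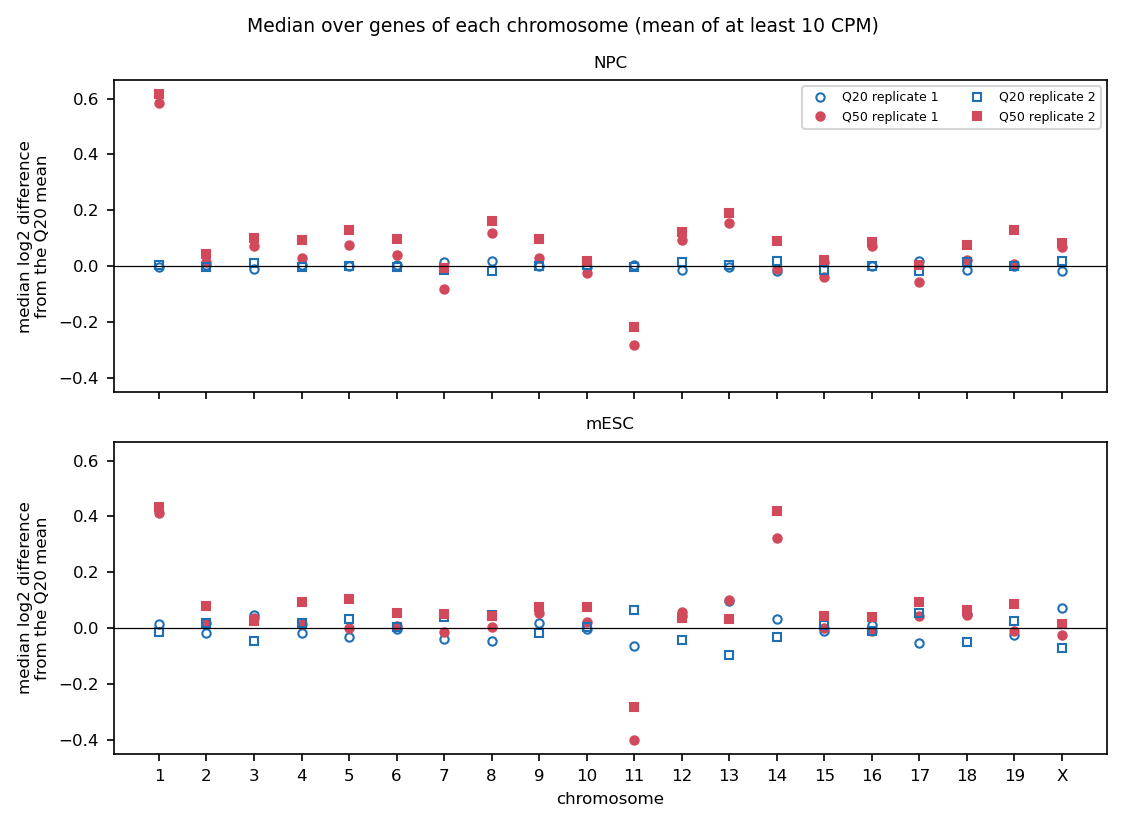
Median over genes averaging 10 CPM or more of the log2(CPM + 1) difference from the Q20 mean, by chromosome, in NPC (top) and mESC (bottom); open blue points are Q20 libraries and filled red points Q50 libraries, which share the scale of their own table. In both cell types chromosome 1 lies above and chromosome 11 below the rest, and chromosome 14 is raised in mESC alone, at 0.32 and 0.42.

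The position of the other lines describes which of the pair stood apart. For 1093 of the 1415 genes lower in Q50 (77.2%), the median of the 8 WT, KO, Q92 and Q111 libraries was nearer to the Q50 mean than to the Q20 mean. For the 1063 genes that were higher it was 527 (49.6%), and for all genes tested 58.4%. Among the 322 genes that fell at least 4-fold it was 291. The plot of levels by genotype shows both kinds: Pou5f1, Dnmt3b and Stmn2 were high in Q20 alone, and Eif2s3y was low in Q50 alone. With WT in place of Q20 as the reference, 874 genes were called in the Q50 NPC, 599 higher and 275 lower.

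In mESC of the same alleles, Q50 against Q20 gave 1 called gene of 13916 (0.00719%), Mmgt1, and 887 genes (6.37%) at an unadjusted p under 0.05. The edgeR test called 1. Neither test used the replicate number. In mESC, replicates with the same number deviated together, and with the number as a block 137 genes were called (85 higher, 52 lower). With the block, 2420 genes had an unadjusted p under 0.05 (limma). The count of 1 therefore does not show that Q20 and Q50 mESC were alike. The NPC and mESC contrasts share no library. Across the 12321 genes tested in both tables, the changes correlated at r = 0.0454 (rho = 0.073), a description over genes that are not independent replicates. Pou5f1 was at 326 and 433 CPM in Q20 mESC and 374 and 562 CPM in Q50 mESC, so its difference between the lines was found in the NPC.

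Genes with few exons were less reproducible between replicates. Among genes with at least 5 CPM in a library, 21.9% of genes with 1 exon and 16.7% of genes with 2 exons differed at least 4-fold between the Q20 replicates, against 0.571% of genes with 3 or more. In Q50 the shares were 20.9%, 18.3% and 0.536%. Of the genes named by rule, Gpr17, Hoxb4, Hoxb9, Hoxb2, Cdkn2b and Rtl1 have 2 annotated exons and Magel2 has 1, and their values are uncertain to that extent. Magel2 was at 0 and 4.43 CPM in Q50 replicates 1 and 2. Without genes of 1 or 2 exons, 2394 genes were called. In all, 23 of the 105 genes named by rule, Htt, Ddx3y, Cdh19, Igf2bp1, Tubb3, Gap43, Col1a2 and Glul among them, overlap another annotated gene on the same strand, so reads could be shared.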

How the data were processed

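The authors deposited 1 table of gene values per cell type, named CPM; per the submitters' processing notes, CASAVA 1.8 and STAR were used with GRCm38.p6, and the counting tool is not given in the sources used here. The authors' values are a signal made from read counts per gene: the deposited columns do not sum to a common total and equal reads scaled by TMM factors. Every value (100%) was a whole multiple, within 0.05 reads, of its column's step, which gave back the reads. The comparison used limma 3.58.1 on log2(CPM + 1) (means of 6 groups, variance trend, two-sided) for genes with at least 1 CPM in 2 libraries. On the recovered reads, edgeR 4.0.16 called 2101 genes and DESeq2 1.42.0 3352. P-values measure the spread between the 2 libraries of a group, pooled over the 6 genotypes of a cell type and moderated over genes. An exact permutation of 2 against 2 cannot go below p = 0.333. Positions, exons (the most in any 1 transcript) and overlaps are from GENCODE M21, which matched 99.95% of genes; 13186 of 13206 tested genes were protein-coding. The comparison and the 25 gene lists were chosen with earlier results of these data known.

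The naming rule took Htt, 9 defining marker genes, the 12 largest rises and 12 largest falls, the 4 most abundant rises and falls with at least a 2-fold change, and up to 4 called members of each list. All had to be called (Htt and the markers excepted), with at least 5 CPM in the higher group. The first 2 classes of changes also had to be protein-coding, with groups that do not overlap and more than 1 exon. List members named beyond this complete counts or were chosen after their values were seen. Replicate numbers were not taken to pair NPC libraries. Deviations of same-numbered libraries correlated there at -0.0287 between Q20 and Q50 and at -0.0495 to 0.467 over the pairs of groups. In mESC they correlated at 0.463 between Q20 and Q50, and at 0.25 or more in all 15 pairs of groups. The mESC results reported here nevertheless come from a fit without a replicate block. The block was run as an alternative, with 137 calls. Of the fits, limma's alone was run on simulated reads, of genes averaging over 5 CPM with a fixed dispersion. Its outcome is not given here, and no result above rests on it. Alternatives are in the closing section.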

Additional observations from a re-analysis of the deposited data

Results flagged for a closer look

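For 12 of the named genes the groups did not overlap in NPC or in mESC and the mESC libraries of Q50 and Q20 lay in the opposite order. No mESC change among them passed the test (limma without a replicate block, adjusted p 0.44 to 0.999). The difference between the cell types was not tested. Among genes that rose in the Q50 NPC, the mESC log2 change was -0.73 for Angpt2, -1.47 for Igfbp3, -1.08 for Slc4a4, -0.59 for Col1a2 and -0.94 for Lfng. It was -1.25 for Nes and -0.86 for Slc1a3, which were not called in NPC. Among genes that fell in the Q50 NPC, it was 0.75 for Zdbf2, 0.18 for Fgfr3, 0.96 for Des, 0.33 for Chrd and 0.99 for Grb10. Igfbp3 was at 156 and 91.8 CPM in Q20 mESC and 44 and 41.4 CPM in Q50 mESC.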

How the results depend on the processing

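Against 2478 calls in NPC (1063 higher, 1415 lower), 1375 genes (748 higher, 627 lower) were called when genes averaging under 5 CPM were left out, which turns the balance. Fits to the 4 libraries alone, to the 8 knock-in libraries and without both WT libraries called 3927, 5032 and 3543; the last was chosen after seeing the data, as were leaving out chromosomes or genes of 1 or 2 exons and edgeR with the block. With 1 library left out, 1258 to 1423 were called, the lone library being assumed to vary like the other groups. Counts under pseudocounts of 0.1 (2301) and 5 (2572), no filter (2863), median-of-ratios (2511) or quantile (2732) scaling, no variance trend (2478), the replicate block (2504) and edgeR with the block (2080) stayed within 1.5 times. In mESC the count of 1 became 2, 3, 2, 2 and 0 with pseudocounts of 0.1 and 5, quantile scaling, no variance trend and the 8 knock-in libraries, 137 with the replicate block, and 0 to 2 with 1 library left out. The cause was not tested.

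Of the 100 called genes named by rule, 68 kept their call and none changed sign under the 18 alternatives that keep Q20 as the reference. Leaving out 1 library ended 28 calls, with adjusted p up to 0.241: Ccnd1, Ckb, Hoxb9, Hoxb2, Hey2, Chrd, Dusp6, Gadd45a, Hmgcs1, Zcwpw1 without any 1 of the 4 libraries; Gpr17, Glul, Mylk, Dll3, Smad7, Hnrnpf without Q20 replicate 1 or Q20 replicate 2 or Q50 replicate 2; Fabp7, Emx2, Magel2 without Q20 replicate 1 or Q20 replicate 2 or Q50 replicate 1; Agt, Dbx2, Celf1, Hsd17b7 without Q20 replicate 1 or Q50 replicate 1 or Q50 replicate 2; Fgfr3 without Q20 replicate 1; Tubb3 without Q50 replicate 1 or Q50 replicate 2; Foxj1 without Q20 replicate 2 or Q50 replicate 2; Zic1 without Q20 replicate 2 or Q50 replicate 1 or Q50 replicate 2; Cdkn1a without Q20 replicate 1 or Q20 replicate 2. With edgeR, Des, Eomes, Hey2, Khdrbs2, Lef1, Smad7, Chrd, Agt, Glul and Magel2 were not called. WT as the reference replaces the Q20 libraries and so is another contrast: 874 genes were called, and the log2 change was of the opposite sign for Agt (1.12), Sfrp1 (1.11), Magel2 (1.07), Lef1 (0.82), Mmp2 (0.70), Peg3 (0.43), Khdrbs2 (0.40), Celf4 (0.31), Eomes (0.20), Tpm2 (0.18), Des (0.12), Enpp6 (0.0635), Epcam (0.035), Tnr (0.00851), Jag2 (0.00399), Rtl1 (0.000645), Tnc (-0.51), Serpine2 (-0.24), Zic1 (-0.18) and Zcwpw1 (-0.58). List medians also turned against WT, to 0.51 (astrocyte), 0.0281 (neuron), 0.12 (smooth muscle), -0.18 (regional patterning), -0.0565 (splicing), 0.0727 (imprinted) and -0.0131 (germline). With genes under a mean of 5 CPM left out, the smooth muscle median was 0.37 and that of neural crest 0.11. The regional patterning median was -0.0886 without a filter and -0.17 without genes of 1 or 2 exons. Depth limits the genes near 0: in Q50 replicate 1, the shallowest of the 4 libraries, 1 read was 0.0193 CPM.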
